A study of Homo sapiens with 2 samples.

Results

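The cadherin family on these arrays comprised 113 genes with 124 probes, out of 18638 genes with a symbol and 24459 probes in all. The members were chosen by gene symbol alone: the numbered cadherins, all protocadherins, desmocollins, desmogleins, FAT and CELSR genes, DCHS1, CDHR1, CDHR2 and CDHR5, with their cytoplasmic partners, namely the catenins CTNNB1, CTNNA1 and CTNND1, plakoglobin (JUP), desmoplakin (DSP) and the plakophilins. Of the members 102 had 1 probe and 11 had a pair. The material was SW620, an established human colon carcinoma line grown from a lymph node metastasis, kept in DMEM with serum. SW620 cells that expressed CDR1AS, a circular RNA rich in miR-7 sites, gave 1 array, and SW620 cells with control lentiviruses gave 1 array. Whether the cells were a pool or a clone, and which promoter drove CDR1AS, is not stated in the sources used here. The design text names the transcripts that depend on CDR1AS as the question.

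Cadherins are transmembrane proteins whose extracellular repeats bind calcium and hold neighbouring cells together. Classical cadherins recruit beta-catenin, p120-catenin and, through beta-catenin, alpha-catenin, which links the junction to actin. Desmosomal cadherins are anchored to keratin filaments by plakoglobin, plakophilins and desmoplakin. Protocadherins mostly lack catenin binding, and the clustered ones act in recognition between neurons. E-cadherin (CDH1) is the main classical cadherin of colon epithelium, LI-cadherin (CDH17) is typical of intestinal cells, and loss of E-cadherin with gain of N-cadherin (CDH2) is a well-known mark of epithelial-mesenchymal transition. Free beta-catenin is also the transcriptional partner of the TCF factors in Wnt signalling.

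Promoter sequence is shown for PCDH19, the member with the largest difference, and for CTNNB1, among the lowest, since these are the members on which the results turn and for which sequence was at hand. Each stretch is the 250 bases before the annotated start, 5′ to 3′ on the gene's own strand, from RefSeq on GRCh38.p14. Capitals mark matches to the GC box GGGCGG on either strand. The minus-strand stretch of PCDH19 lies at chrX:100410274-100410523 and the plus-strand stretch of CTNNB1 at chr3:41199255-41199504.
PCDH19: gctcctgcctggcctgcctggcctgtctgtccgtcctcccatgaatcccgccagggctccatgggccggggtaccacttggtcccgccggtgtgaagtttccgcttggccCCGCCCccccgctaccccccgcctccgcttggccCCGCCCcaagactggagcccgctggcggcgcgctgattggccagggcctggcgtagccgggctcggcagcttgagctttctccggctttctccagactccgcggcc
CTNNB1: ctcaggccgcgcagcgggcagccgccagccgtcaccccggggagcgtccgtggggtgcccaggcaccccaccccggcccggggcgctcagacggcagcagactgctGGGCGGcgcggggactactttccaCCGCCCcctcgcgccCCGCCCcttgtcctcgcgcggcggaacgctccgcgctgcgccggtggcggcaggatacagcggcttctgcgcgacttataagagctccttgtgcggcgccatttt
The PCDH19 stretch held 2 GC box matches, 72.0% G and C and 21 CpG dinucleotides. The CTNNB1 stretch held 3 matches, 74.4% G and C and 34 CpG. A GC box was present in 42.3% of 27305 promoters of this length. Neither stretch held the E-box CACCTG, the site of SNAI and ZEB factors, or TATAAA on either strand, motifs found in 17.5% and 11.1% of all promoters. These matches describe letters in the window and say nothing of binding. PKP3 and CDH1 are named only.

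Most members were close to the floor of the arrays. The limit for calling a probe present was the blank spots' mean plus 2 of their SDs, or 72.1 on the CDR1AS array and 69.1 on the control array, in arbitrary intensity units. By this rule 71 of 113 members were measured, 65 on both arrays and 6 on the CDR1AS array only, and 42 were above the limit on neither. That is 62.8% of the members, against 89.5% of all 18638 genes. Only 15 members (13.3%) reached 2 times the limit on both arrays, against 39.7% of all genes. The epithelial check of the line gave EPCAM, an epithelial adhesion gene, at 6334 on the CDR1AS array and 8538 on the control array, and VIL1, which encodes villin of the brush border, at 755 and 607 on the same arrays. Of 9 colon epithelial markers on the arrays, 9 were above the limit on the CDR1AS array and 8 on the control array, and KRT20, CDX1, LGALS4 and CDH17 were under 2 times the limit on both. The intestinal transcription factor gene CDX2 (log2 ratio −0.82) and the keratin gene KRT19 (0.83) differed by more than 1.5-fold between the arrays. The fibroblast genes COL1A1, COL1A2 and COL3A1 and the leukocyte gene PTPRC were above the limit on neither array, whereas the fibroblast markers DCN, LUM and PDGFRB and the leukocyte markers CD3E, CD14 and LYZ were above it on both. The squamous keratin genes KRT14 (454 on the CDR1AS array and 385 on the control array) and KRT5 (241 and 188) were also above it. Of the endothelial markers VWF and KDR were above the limit on both arrays and TEK on neither. PECAM1 (98.3 on the CDR1AS array and 66.4 on the control array, log2 ratio 0.58) and CDH5 were above it on the CDR1AS array only. The part of these markers in the results below was not tested. Since no array was repeated, no replicate spread, test or p-value exists: every difference is between 2 arrays, and their number limits its precision.

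PCDH19 was the only member at or past 2-fold, and it was higher on the CDR1AS array. The other measured members lay between −0.92 and 0.16 on the log2 scale. The ratio is the CDR1AS array over the control array, after quantile normalization of intensities with 50 units added, an offset that compresses folds of dim genes. Higher by at least 2-fold was 1 of 71 measured members (1.41%), beside 0.755% of 16685 genes measured. Lower by at least 2-fold was 0 of 71, beside 0.575%. At 1.5-fold, 1 member was higher (background 2.63%) and 2 were lower, PKP3 and CTNNB1 (2.82% of members, background 2.24%). The median log2 ratio over the members was −0.01 and over all genes −0.00. It stayed at −0.01 with the 6 members above the limit on 1 array at their bound. These shares are near the background, so they say nothing particular of the family. In the authors' deposited table, which has no offset, 2 members were at least 2-fold higher (PCDH19 and PCDHA12, background 3.32%) and 1 at least 2-fold lower (CDH3, background 2.25%), PCDHA12 and CDH3 close to the floor.

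**Figure D1:**
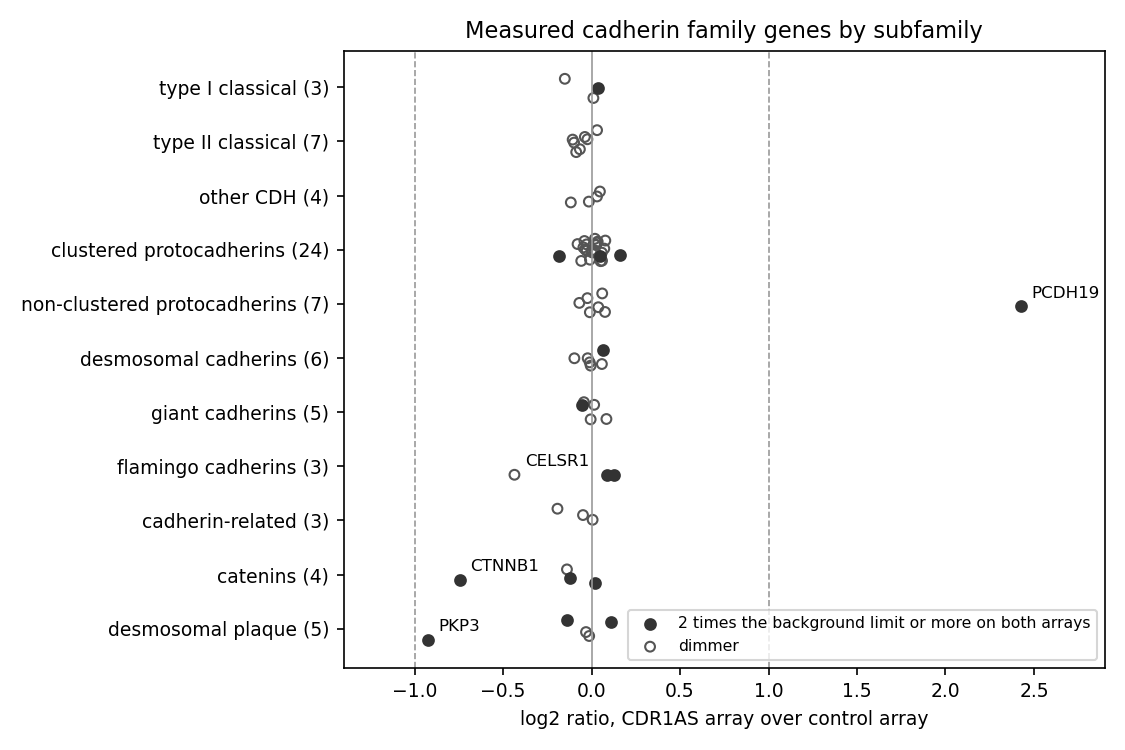
Log2 ratio (x axis, CDR1AS array over control array) of the 71 measured members, 1 point each, by subfamily with the number measured. Filled points reached 2 times the background limit on both arrays, and dashed lines mark 2-fold. PCDH19 sits alone at 2.43, and PKP3 (−0.92), CTNNB1 (−0.75) and CELSR1 (−0.44) lie left of the rest.

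Small ratios were frequent among the members even where they were bright. Within 0.2 of 0 on the log2 scale were 67 of 71 measured members (94.4%), against 73.1% of all genes measured. Among the 15 members at 2 times the limit or more on both arrays the count was 12 (80.0%), against 57.8% of 7396 genes that met the same limit. The count depends on the setting. In the authors' deposited table PCDHB15 (0.32), CELSR3 (0.25) and DSP (0.22) also lay outside this range. With the local background subtracted most of the 15 did, among them CTNND1 (0.52), CELSR2 (−0.39) and DSG2 (−0.34). The shares of all genes in these settings were not taken. In that brighter class 1 member was at least 2-fold higher (background 1.01%) and 0 at least 2-fold lower (background 0.879%). At 1.5-fold the counts were 1 higher (background 3.83%) and 2 lower (background 3.7%), again PCDH19, PKP3 and CTNNB1. No test was made of these shares. The members of the brighter class were CDH1, PCDHA8, PCDHB15, PCDHGB6, PCDH19, DSG2, FAT1, CELSR2, CELSR3, CTNNA1, CTNNB1, CTNND1, DSP, PKP3 and PKP4.

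PCDH19 is a protocadherin of the non-clustered delta group, known in humans as the gene of an X-linked epilepsy that affects mainly females. Its brighter probe read 901 on the CDR1AS array and 166 on the control array, a log2 ratio of 2.43 or 5.38-fold. Its other probe read 208 on the CDR1AS array and 82.9 on the control array, a log2 ratio of 1.39 or 2.63-fold. Both probes were above the limit on both arrays, and both were higher on the CDR1AS array. The gap between the probes shrank on the scale without the offset: in the authors' deposited table the brighter probe had 381 and 47.9 on the CDR1AS and control arrays, which is 7.95-fold. The other probe had 63.4 and 8.1 there, which is 7.83-fold. Its control spot was only 1.20 times the limit, so the size of this fold is poorly determined. Among the 10 other members with a pair of probes, the ratios of a pair differed by at most 0.44 (CELSR1) on the log2 scale.

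The PCDH19 result did not hold for its dimmer probe when the local background column was subtracted. After that subtraction the log2 ratio was 1.85 for the brighter probe and −0.43 for the other. The local background at the brighter probe was 31.6% of the spot on the CDR1AS array and 70.1% on the control array. At the other probe it was 108% of the spot on the CDR1AS array and 89.4% on the control array, so subtraction left nothing of that spot on the CDR1AS array. The gene spots around each PCDH19 probe, within 3 rows and columns, had median log2 ratios of 0.02 and −0.06 (27 spots each). The 10 measured genes nearest to PCDH19 along the X chromosome, 5 on each side, had log2 ratios from −0.87 to 0.62 with a median of −0.07.

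**Figure D2:**
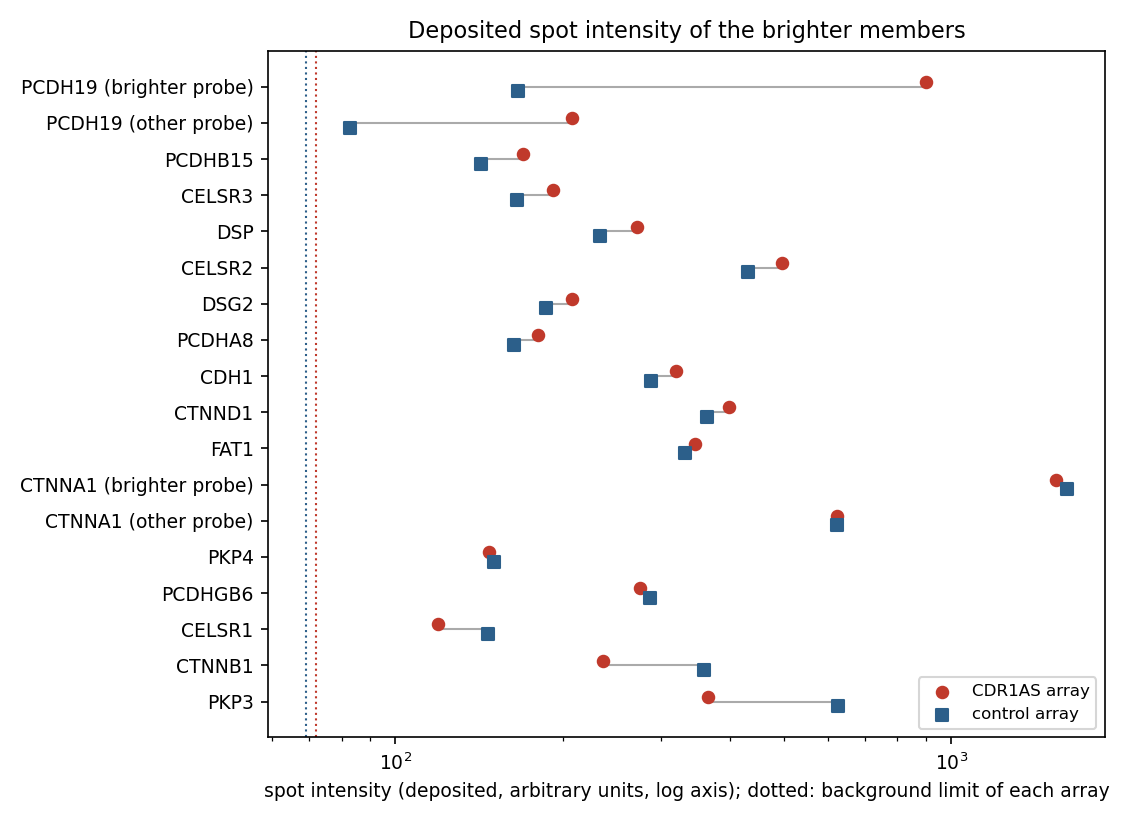
Deposited spot intensity (x axis, log scale, arbitrary units) of the members at 2 times the background limit or more on both arrays, with CELSR1 and the other probe of PCDH19, ordered by log2 ratio. Circles are the CDR1AS array, squares the control array, dotted lines the limits of 72.1 and 69.1. The PCDH19 probes are farthest apart, with the CDR1AS array higher, and PKP3 and CTNNB1 are apart with the CDR1AS array lower.

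The remaining non-clustered protocadherins were close to the floor. The 7 measured genes of this group had a median of 0.04, and all but PCDH19 lay between −0.07 and 0.08, a range that the offset narrows. In the authors' deposited table the group's median was 0.28, with PCDH17 at 0.86 and PCDH1 at −0.57, both near the floor. PCDH1, which is made in epithelia including that of the airway, read 75.4 on the CDR1AS array and 74.1 on the control array (−0.07). PCDH9, a delta protocadherin of brain, read 91.2 and 82.6 on the same arrays (0.08, other probe −0.01). PCDH12, a protocadherin of endothelium, read 89.1 and 81.4 (0.06). PCDH7, PCDH8 and PCDH10 were above the limit on neither array, so no change of theirs could be seen at this floor.

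Classical cadherins differed little where they could be measured. CDH1 read 320 on the CDR1AS array and 288 on the control array, a log2 ratio of 0.04, and 114.5 and 106 on these arrays in the authors' deposited table. With the local background subtracted the CDH1 ratio was 0.27. That background was 41.4% of the CDH1 spot on the CDR1AS array and 75.0% on the control array. Repeated spots of the 2 positive controls within the arrays give a log2 ratio of spots before normalization a spread of 0.16 and 0.28. The CDH1 ratio is on the normalized scale, and these spreads hold no difference between arrays or cultures. They therefore do not measure how precise the CDH1 ratio is. CDH2 was above the limit on neither array, at 70.3 on the CDR1AS array and 68.3 on the control array. P-cadherin (CDH3), a cadherin of basal epithelial cells, read 75.3 on the CDR1AS array and 77.6 on the control array (−0.15), and its 2.7 and 5.6 in the authors' deposited table make it 2.07-fold lower there. CDH3 lies so near the floor that this fold is poorly determined. M-cadherin (CDH15), known from muscle, had a ratio of 0.01.

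Type II and other cadherins stayed near the floor. Of 13 type II genes 7 were measured, with a median of −0.07 and a range from −0.11 (CDH22) to 0.03 (CDH9), which the offset narrows. In the authors' deposited table the median was −0.33, with CDH9 at 0.12. That median is over another set of genes. It takes in CDH20 (−0.45), which has values on both arrays there but was above the limit on neither. CDH22 (−0.90) and CDH12 (−0.67) lay further out there, both near the floor. CDH5, the cadherin of endothelial cells, read 72.3 on the CDR1AS array and 69.0 on the control array, at the limit on both. CDH11, a cadherin of mesenchymal cells, was above the limit on neither array, at 71.0 and 64.7. CDH17 read 73.3 on the CDR1AS array and 67.9 on the control array, narrowly above the limit on the CDR1AS array only. This intestinal cadherin was thus at the floor on both arrays, although the line is labelled colon carcinoma. CDH26 had −0.12 (−0.55 in the authors' deposited table), CDH23, a cadherin of hair-cell tip links, 0.05, and the kidney cadherin CDH16 −0.02.

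The clustered protocadherins, which lie in a row on chromosome 5 and are expressed mainly in neurons, differed by at most 0.19 on the log2 scale in either direction, with the offset of 50. Of 52 genes 24 were measured, 15 with ratios above 0 and 9 below, and their median was 0.02. Without an offset, in the authors' deposited table, genes near the floor lay further out, with log2 ratios of 1.24 for PCDHA12, 0.77 for PCDHA1, 0.44 for PCDHGC4 and −0.40 for PCDHAC1. The measured share was 9 of 15 in the alpha cluster, 4 of 16 in the beta cluster and 11 of 21 in the gamma cluster. The highest ratio was that of PCDHB15 (0.16), whose spot was 169 on the CDR1AS array and 143 on the control array. The lowest was that of PCDHGB6 (−0.19), at 275 on the CDR1AS array and 287 on the control array. PCDHA8 read 180 and 163 (0.05) and PCDHGB3 read 135 and 121 (0.06) on the CDR1AS and control arrays.

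Along the chromosome the brighter genes were the same on both arrays, and PCDHA7 and PCDHA8 among them were neighbours. PCDHA8 was at 2.50 times the limit on the CDR1AS array and 2.36 times on the control array, PCDHB15 at 2.35 and 2.07 times, and PCDHGB6 at 3.82 and 4.15 times. PCDHA7 had 1.61 and 1.66 times the limit and PCDHGB3 1.87 and 1.76 times. The remaining 47 of the 52 were under 1.5 times the limit on at least 1 array. Genes of a cluster are close copies of each other, and the alpha and gamma genes share their last exons, so a probe may detect several of them. The probe sequences were not used here, and this was not tested.

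**Figure D3:**
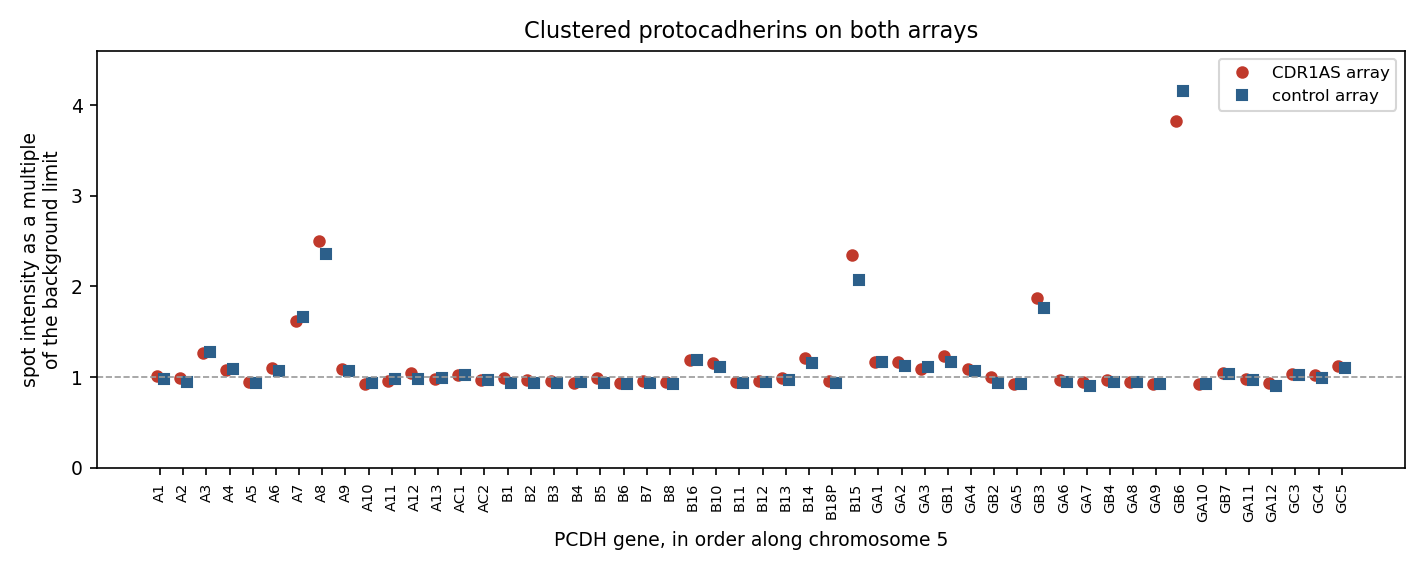
Spot intensity as a multiple of the background limit (y axis) for the 52 clustered protocadherin genes in their order along chromosome 5 (x axis), circles for the CDR1AS array and squares for the control array. The dashed line is the limit. PCDHGB6 (3.82 and 4.15), PCDHA8 (2.50 and 2.36) and PCDHB15 (2.35 and 2.07) exceed 2 times the limit on both arrays.

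Among desmosomal cadherins, DSG2, the desmoglein of simple epithelia, was the only one at 2 times the limit on both arrays. It read 208 on the CDR1AS array and 186 on the control array, a log2 ratio of 0.07. DSC2, its usual partner in intestinal epithelium, was above the limit on neither array, at 70.5 and 64.3. The epidermal members DSG1, DSG3, DSC1 and DSC3 had log2 ratios of 0.06, −0.00, −0.02 and −0.10 close to the floor, and the 6 measured genes had a median of −0.01. Without the offset, in the authors' deposited table, DSG1, DSG3, DSC1 and DSC3 had 0.65, 0, −0.16 and −0.50. All 7 desmosomal cadherin genes lie side by side on chromosome 18, with DSG2 at the end of the row.

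PKP3 was the lowest member of the family on the CDR1AS array. Plakophilin 3, found in desmosomes of nearly all epithelia, read 365 on the CDR1AS array and 626 on the control array, a log2 ratio of −0.92 or 1.90-fold lower. In the authors' deposited table it had 135 and 267 on these arrays, 1.97-fold lower. The other plaque genes differed less: DSP read 272 on the CDR1AS array and 233 on the control array (0.11), PKP2 135 and 128 (−0.01), PKP4 147 and 150 (−0.14) and PKP1, a plakophilin of stratified epithelia, 83.0 and 80.0 (−0.03). Within this group of 5 the median was −0.03, so the lower value belonged to PKP3 and not to the plaque genes together.

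CTNNB1 was the other member lower by more than 1.5-fold. The beta-catenin gene read 236 on the CDR1AS array and 359 on the control array, a log2 ratio of −0.75 or 1.68-fold lower. In the authors' deposited table it had 76.2 and 140 on these arrays, 1.83-fold lower. The other catenins were near 0. CTNNA1, which encodes alpha-catenin, read 1541 on the CDR1AS array and 1613 on the control array (−0.12), and its other probe gave −0.13. The p120-catenin gene CTNND1 read 398 and 364 (0.02), and JUP, whose product serves both adherens junctions and desmosomes, 131 and 134 (−0.14).

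PKP3 and CTNNB1 turned higher once the local background was subtracted, with log2 ratios of 0.42 and 0.66. At PKP3 the local background was 198 on the CDR1AS array and 573 on the control array, which is 54.1% and 91.5% of the spot. At CTNNB1 it was 109 on the CDR1AS array and 338 on the control array, which is 46.1% and 94.3% of the spot. Across all spots the log2 local background followed the log2 spot with Pearson's r = 0.945 on the CDR1AS array and 0.979 on the control array (spots are not independent replicates). The column was therefore not taken as a background for the values above. Both genes had 1 probe each, so no other probe bears on their direction. Gene spots around PKP3 had a median log2 ratio of −0.04 (48 spots) and those around CTNNB1 −0.03 (39 spots). The 10 measured genes nearest to each on its chromosome had log2 ratios from −0.57 to 0.03 with a median of −0.10 for PKP3, where 9 of the 10 were below 0, and from −0.27 to 0.29 with a median of −0.06 for CTNNB1.

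**Figure D4:**
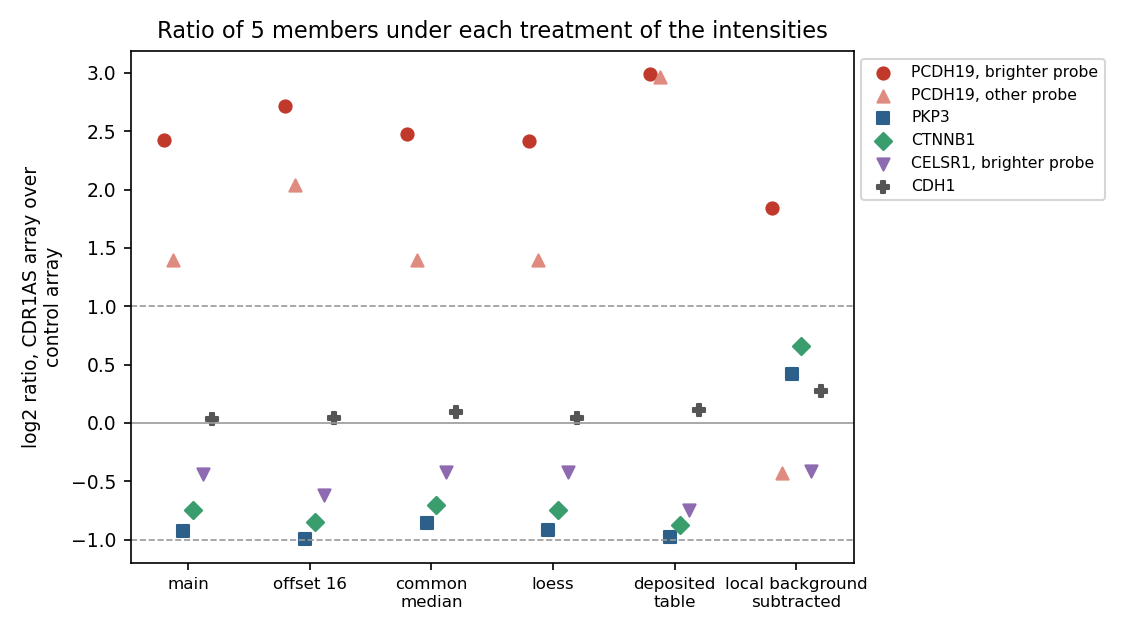
Log2 ratio (y axis, CDR1AS array over control array) of PCDH19 by both probes and of PKP3, CTNNB1, CELSR1 and CDH1 under 6 treatments of the intensities (x axis). Dashed lines mark 2-fold. In the deposited table both PCDH19 probes lie near 3 (2.99 and 2.97), and with the local background subtracted PKP3 (0.42) and CTNNB1 (0.66) lie above 0 and the dimmer PCDH19 probe below it (−0.43).

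The giant and flamingo cadherins act in planar polarity and Hippo signalling. FAT1, the only giant gene at 2 times the limit on both arrays, read 346 on the CDR1AS array and 332 on the control array (−0.05). FAT2, FAT3, FAT4 and DCHS1, a ligand of FAT4, lay between −0.04 and 0.08, and the median of the 5 giant genes was −0.01. Of the flamingo genes CELSR2 read 497 on the CDR1AS array and 431 on the control array (0.09) and CELSR3 192 and 165 (0.13). CELSR1 read 119 on the CDR1AS array and 146 on the control array (−0.44, or 1.35-fold lower), with 22.9 and 38.4 in the authors' deposited table (1.68-fold lower). Its other probe, close to the limit at 76.6 and 72.1, gave 0.01. The value for CELSR1 thus rests on 1 of its probes.

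The cadherin-related genes CDHR2 and CDHR5 link the microvilli of the intestinal brush border. CDHR5 read 118 on the CDR1AS array and 125 on the control array (−0.19), and its other probe gave 0.04. CDHR2 read 78.2 on the CDR1AS array and 76.1 on the control array (−0.05). CDHR1, known as a photoreceptor cadherin, had a ratio of 0.01.

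Promoters of the brightest members were rich in G and C. Promoter sequence was at hand for 85 of the 113 members. The median content of G and C was 72.6% (range 34.8 to 80.0%) for 12 of the 15 members at 2 times the limit on both arrays. It was 46.8% for the 38 dimmer measured members, 43.6% for the 35 above the limit on neither array, and 58.0% over all promoters. No value was taken for genes outside the family at 2 times the limit, so the high content cannot be called particular to these members. A GC box was found in 24.7% of the member promoters, the E-box CACCTG in 12.9% and TATAAA in 8.24%. Over all promoters these shares were higher, at 42.3%, 17.5% and 11.1%. Many of the dim members are clustered protocadherins, which are copies of each other, so these promoters are not independent of each other, and no test was made.

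Partners of cadherin adhesion outside the family were mostly within 1.5-fold, and the 6 past it were all higher on the CDR1AS array. Of 53 listed genes 48 were measured, 32 of them above 0 and 16 below. Their median was 0.06. At least 1.5-fold higher were 6 (12.5%, beside 2.63% of all genes), and 0 were lower by as much (background 2.24%). With the local background subtracted some were lower by as much, such as ACTN1 (−1.95). The list was drawn up with earlier results of these data known, so no conclusion is drawn from these shares. ENAH, an Ena/VASP protein that extends actin filaments at junctions, read 207 on the CDR1AS array and 70.4 on the control array, a log2 ratio of 1.67 or 3.18-fold. Its control spot lay barely over the limit of 69.1, so the size of the fold is poorly determined. It was the only listed partner past 2-fold. The control spots of FJX1 and CLSTN2 were close to the limit as well, and their folds are as uncertain.

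The other 5 were CLSTN2, a calsyntenin with cadherin repeats (136 on the CDR1AS array and 72.9 on the control array, 0.94), the actin crosslinker ACTN4 (920 and 501, 0.77), the alpha-catenin relative CTNNAL1 (1034 and 564, 0.77), FJX1, a relative of the Drosophila kinase that modifies Fat (113 and 69.7, 0.72), and plectin, PLEC, which ties filaments to junctions (1908 and 1137, 0.65). After subtraction of the local background ACTN4 had −0.73, ENAH 0.61, FJX1 0.24 and CLSTN2 0.11, whereas CTNNAL1 had 1.06 and PLEC 2.74. By role, the 6 nectin and afadin genes had a median of −0.05 with 0 past 1.5-fold, and the 7 genes of cadherin turnover, among them the sheddase gene ADAM10 (−0.19), had a median of 0.10. The lowest partner was USH1C, which encodes harmonin of the brush border and binds CDHR2 and CDHR5 (140 on the CDR1AS array and 178 on the control array, −0.48). The list was chosen by role and not tested as a set.

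**Figure D5:**
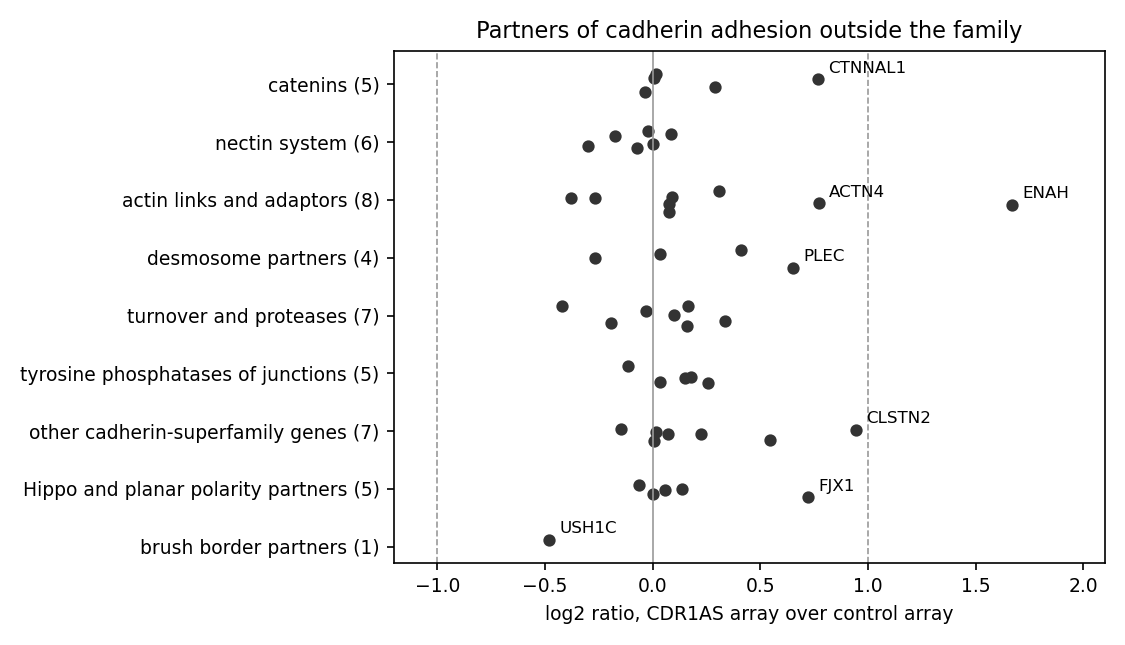
Log2 ratio (x axis, CDR1AS array over control array) of 48 measured partners of cadherin adhesion, 1 point each, grouped by role with the number measured. Dashed lines mark 2-fold. ENAH lies at 1.67, the other labelled genes on the right between 0.65 and 0.94, and USH1C lowest at −0.48.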

How the data were processed

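Cy5-labelled RNA of SW620 cells was measured on 2 one-colour arrays, 1 per group. The deposited spot intensity is, per the file headers, the median brightness at 635 nm read at 3 gains, and the sources used here do not say how the gains were joined. Each array held 24460 gene probes, of which 1 was left out for a flag. Intensities were processed with limma 3.58.1 in R 4.3.3: normexp without the local background, offset 50, quantile normalization and log2. The authors' deposited value table is on a linear intensity scale. Each column was a straight line of its array's spots (largest residual 0.0559), with 0 near the blank level. The slope was 0.458 for the CDR1AS array and 0.476 for the control array, and both columns had the same median of 25. Values near the blanks are empty in that table. Blanks averaged 69.5 ± 1.30 on the CDR1AS array and 65.9 ± 1.60 on the control array (SD, 384 spots each). A gene took its brightest probe. Symbols came from the platform annotation, and all 113 members matched RefSeq (GRCh38.p14) by gene identifier. The sources used here name no build for the array, so coordinates are printed only for RefSeq sequences. Members, lists and thresholds were chosen with earlier results of these data known. Named members were those past 1.5-fold, the extremes of each subfamily and a fixed set of well-known genes. Alternatives were other offsets, normalizations, filters and probe rules. The steps were tested on simulated data.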

Additional observations from a re-analysis of the deposited data

How the results depend on the processing

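By the deposited values, 2 members were at least 2-fold higher, PCDH19 and PCDHA12, and 1 was at least 2-fold lower, CDH3 (backgrounds 3.32% and 2.25% of 16305 genes with values on both arrays). Both additions had deposited values of at most 5.6, near the floor. The other 7 alternatives gave 1 and 0. Subtraction of the local background turned CTNNB1 to 0.66 and PKP3 to 0.42. It also gave −0.39 for CELSR2, −0.34 for DSG2 and 0.52 for CTNND1, beside 0.09, 0.07 and 0.02 in the main setting. PCDH19 ranged from 1.85 (local background subtracted) to 2.99 (deposited table), with 1.91 for the median of its probes and 2.72 for an offset of 16. In the deposited table the median of the type II cadherins was −0.33 (main setting −0.07), with CDH20 taken in there and not in the main setting. That of the non-clustered protocadherins was 0.28 (main setting 0.04). The other subfamily medians, and those of the family and the partners, moved by at most 0.13. No paired analysis was possible because each group had 1 array. Signal over background limits the rest: 56 of the 71 measured members were under 2 times the limit on at least 1 array, where changes would be compressed.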
